A study of Mus musculus with 2 samples.

Results

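Vasopressin and prostaglandin E2 (PGE2) signalling in the newborn mouse kidney was described through 10 genes: the vasopressin receptors Avpr2, Avpr1a and Avpr1b, the adenylyl cyclase Adcy6, the cyclooxygenases Ptgs1 and Ptgs2, and the PGE2 receptors Ptger1, Ptger2, Ptger3 and Ptger4. They were chosen by name for their roles in these pathways, from 43346 Ensembl genes measured, and all 10 were found. The samples were kidneys of B6NCrl mice on postnatal day 0, untreated as far as the labels say, and their sex is not given. Each library held both kidneys of 1 pup, and both pups had the same mother, so n = 2 littermates of 1 group and variation between litters was not sampled. Total RNA above 200 nt was sequenced from 10 ng with spike-ins. There are no conditions to compare and no test can be made. Genes are therefore set against each other inside this tissue, and the error of a value is its SD over both pups.

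In the collecting duct, vasopressin binds the V2 receptor, which acts through the stimulatory G protein and adenylyl cyclase to raise cAMP, and protein kinase A then drives the water channel aquaporin-2 to the cell surface. PGE2 is made locally from arachidonic acid by a cyclooxygenase and a PGE synthase, and can oppose or mimic vasopressin depending on the receptor it meets. The EP1 receptor raises calcium, EP3 mainly inhibits adenylyl cyclase, and EP2 and EP4 stimulate it.

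The receptor messages present were chiefly Avpr2 for vasopressin and Ptger3 and Ptger1 for PGE2, and Ptgs1 far exceeded Ptgs2. The Ptger1 level includes a transcript with no annotated coding sequence, which took 53.5% of its TPM in pup 1 and 60.8% in pup 2. TPM, a level that corrects for transcript length and library size, placed 8 of the 10 genes at 1 TPM or more in both pups. The same held for 61.5% of 21474 protein-coding genes and for 33.9% of all Ensembl genes. The genes below 1 TPM were Ptger2 and Avpr1b. From highest to lowest mean TPM the order was Ptgs1, Ptger3, Avpr2, Ptger1, Adcy6, Avpr1a, Ptger4, Ptgs2, Ptger2, Avpr1b, and both pups gave this same order. The pups' ranges of neighbours did not overlap at any of the 9 steps. Counting intervals were also apart in both pups at 7 of these steps; in pup 2 they overlapped between Ptger3 and Avpr2 and between Avpr2 and Ptger1. The median of all detected genes was 16.2 TPM in pup 1 and 15.4 TPM in pup 2. Ptgs1, Ptger3, Avpr2 and Ptger1 had mean levels above the middle of the detected transcriptome, and the other 6 genes had mean levels below it. Ptger1 was above the median in pup 2 alone, at the 49.4th percentile of detected genes in pup 1 and the 52.9th in pup 2.

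**Figure D1:**
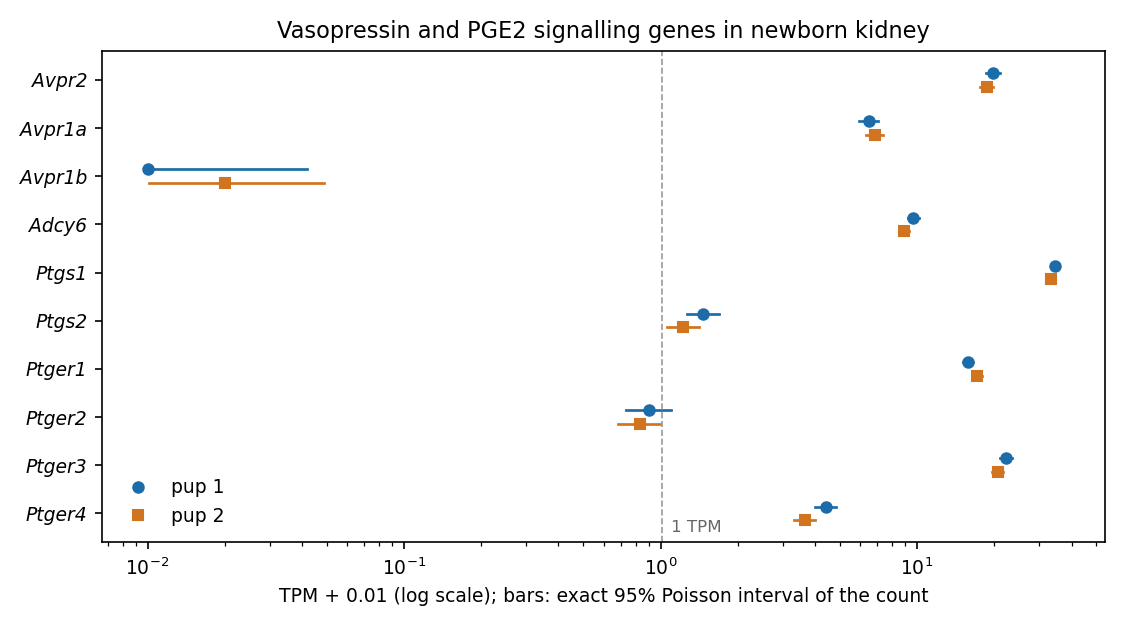
Level of each gene in pup 1 (circles) and pup 2 (squares) as TPM + 0.01 on a log axis, with the exact 95% Poisson interval of its count as a horizontal bar. Ptgs1 lies farthest right, Ptger2 falls just below the dashed line at 1 TPM, and Avpr1b is at or near 0 in both pups.

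The libraries held 41584961 expected counts in pup 1 and 48823952 in pup 2. Taken as a rough limit for a count of 0, 3 counts correspond to 0.0721 and 0.0614 CPM (counts scaled to the library total). All intervals cover counting error only. The labelled tissue matched its markers: 7 of 7 principal cell markers reached 1 TPM in both pups and summed to 1051 TPM in pup 1 and 1110.4 TPM in pup 2, led by Aqp2, and 5 of 5 proximal tubule markers summed to 1694 and 1247 TPM, led by Kap. Of 5 markers of the thick limb and macula densa 4 reached 1 TPM, with sums of 344 and 333 TPM led by Slc12a1, while Nos1 was at 0.52 and 0.64 TPM. All markers of stroma (5), smooth muscle and juxtaglomerular cells (4), endothelium (4), podocytes (4) and macrophages (4) were detected too. Of other organs, the liver list had 5 of 5 members detected and sums of 145 and 126 TPM, led by Afp at 105 TPM in pup 1 and 95.2 TPM in pup 2. Of the adrenal markers 2 of 6 were detected, with sums of 5.76 and 5.98 TPM and Cyp11b2 at 0. Of the pituitary and hypothalamic markers 2 of 5 were detected, with sums of 6.91 and 7.24 TPM and Gh, Prl and Crh at 0. The part of any of these cells in the levels below was not tested.

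Among the vasopressin receptors, Avpr2, the V2 receptor whose loss causes nephrogenic diabetes insipidus, stood at 19.73 TPM in pup 1 and 18.65 TPM in pup 2 (19.2 ± 0.764, SD, n = 2). It was counted by 999 and 1204 reads, and the gene lies on the plus strand of chromosome X (ENSMUSG00000031390.8, mm10 chrX:73892102-73895502). Avpr1a, the V1a receptor that raises calcium in vascular and other cells, had 6.46 and 6.82 TPM from 493 and 640 counts (6.64 ± 0.255; ENSMUSG00000020123.5, chr10:122448499-122453452, plus strand). Both pups thus had more V2 than V1a message. Within a pup, Avpr2 was 3.05 times Avpr1a in pup 1 and 2.73 times in pup 2, a log2 ratio of 1.52 ± 0.11 after adding 0.1 TPM to each level. Avpr1b, the V1b receptor known from the corticotrophs of the pituitary, had 0 counts in pup 1 and 1 count in pup 2 (ENSMUSG00000026432.7, chr1:131599239-131612000, plus strand). The exact Poisson interval reaches 0.0317 TPM for the count of 0 in pup 1 and 0.0389 TPM for the single count in pup 2. Avpr2 held 75.3% and 73.2% of the summed vasopressin receptor TPM of pups 1 and 2, and Avpr1a held 24.7% and 26.8%. In such bulk tissue, fewer cells of a type and less RNA per cell cannot be told apart.

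The Avpr2 locus lies over another gene. In the GENCODE M21 annotation, 2347 of the 2886 exon bases of Avpr2 (81.3%) also lie in exons of Arhgap4, a GTPase-activating protein gene on the opposite strand. The transcript Arhgap4-203, at 1.93 TPM in pup 1 and 1.68 TPM in pup 2, covers all of Avpr2-201, the V2 receptor transcript that held 90.4% and 90.8% of the gene's TPM. The rest of the Avpr2 TPM fell on the coding transcripts Avpr2-202, with 4.24% and 7.38%, and Avpr2-203, with 5.40% and 1.81%. The whole Arhgap4 gene stood at 2.52 and 2.20 TPM, well below Avpr2. L1cam, which spans the same region, shares no exon base with Avpr2. Whether counting used strand is not given, and without strand the reads of such overlapping genes cannot be told apart.

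Adcy6, a calcium-inhibited adenylyl cyclase that the mouse collecting duct needs to answer vasopressin, stood at 9.65 TPM in pup 1 and 8.86 TPM in pup 2, from 1694 and 1914 counts (ENSMUSG00000022994.8, chr15:98589973-98610076, minus strand). It was the highest of the 10 adenylyl cyclase genes in each pup and held 31.0% and 29.8% of their summed TPM. Adcy4 followed with 24.6% and 22.3%, and the calcium-sensitive Adcy3 with 15.2% and 16.7%. Within a pup, Adcy6 was 2.04 and 1.79 times Adcy3, a log2 ratio of 0.92 ± 0.14. Adcy6 had only 1 transcript in the deposited annotation, so its counts were not split. The antisense gene Gm29331, at 2.13 and 0.69 TPM, shares 8.92% of the Adcy6 exon bases.

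Of the cyclooxygenases, which make the prostaglandin precursor PGH2, Ptgs1 was the highest of the 10 genes. This enzyme, COX-1, is made constitutively in many cells. It stood at 34.46 TPM in pup 1 and 33.36 TPM in pup 2 (33.9 ± 0.778), from 2635 and 3141 counts (ENSMUSG00000047250.9, chr2:36230426-36252272, plus strand), which is the 69.4th and 70.0th percentile of the detected genes. Ptgs2, the inducible COX-2 that in kidney is known from the macula densa and medullary interstitial cells, had 1.46 TPM in pup 1 and 1.21 TPM in pup 2 from 188 and 193 counts (ENSMUSG00000032487.8, chr1:150100031-150108227, plus strand). Its counting intervals were 1.26 to 1.68 TPM and 1.05 to 1.40 TPM, so it lay near the lower end of what was called detected. Ptgs1 was 23.6 times Ptgs2 in pup 1 and 27.6 times in pup 2, a log2 ratio of 4.57 ± 0.15, and held 95.9% and 96.5% of the summed cyclooxygenase TPM. Its full-length coding transcript Ptgs1-201 took 91.5% and 91.6% of the gene's TPM, and the rest fell on transcripts with no coding sequence.

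The PGE2 receptors were led by Ptger3, the EP3 receptor. It had 22.23 TPM in pup 1 and 20.59 TPM in pup 2 (21.4 ± 1.16), from 1301 and 1474 counts (ENSMUSG00000040016.12, chr3:157566892-157645888, plus strand). Ptger1, the EP1 receptor, had 15.83 and 17.14 TPM (16.5 ± 0.926) from 1811 and 2365 counts (ENSMUSG00000019464.5, chr8:83666678-83672753, plus strand). Ptger3 was 1.40 times Ptger1 in pup 1 and 1.20 times in pup 2, a log2 ratio of 0.38 ± 0.16; this is the closest of the ratios between genes taken here, and it had the same direction in both pups. Ptger4, the EP4 receptor, had 4.39 TPM in pup 1 and 3.64 TPM in pup 2 from 415 and 425 counts (ENSMUSG00000039942.11, chr15:5206661-5244187, minus strand). Ptger2, the EP2 receptor, had 0.89 and 0.82 TPM from 95 and 107 counts (ENSMUSG00000037759.5, chr14:44988195-45003820, plus strand), with counting intervals of 0.723 to 1.09 TPM and 0.670 to 0.988 TPM. Ptger4 was 4.93 and 4.44 times Ptger2, a log2 ratio of 2.10 ± 0.11. The cAMP-raising receptors Ptger2 and Ptger4 together made up 12.2% of PGE2 receptor TPM in pup 1 and 10.6% in pup 2, while Ptger1 and Ptger3 made up 87.8% and 89.4%. These are shares of message and not of receptor protein, and the Ptger1 part includes its transcript with no annotated coding sequence. Among all 9 prostanoid receptor genes Ptger3 and Ptger1 were also first and second, followed by the thromboxane receptor Tbxa2r at 14.26 and 12.71 TPM. The coding transcript of Ptger1 alone, at 7.37 and 6.73 TPM, would lie below Tbxa2r in both pups.

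**Figure D2:**
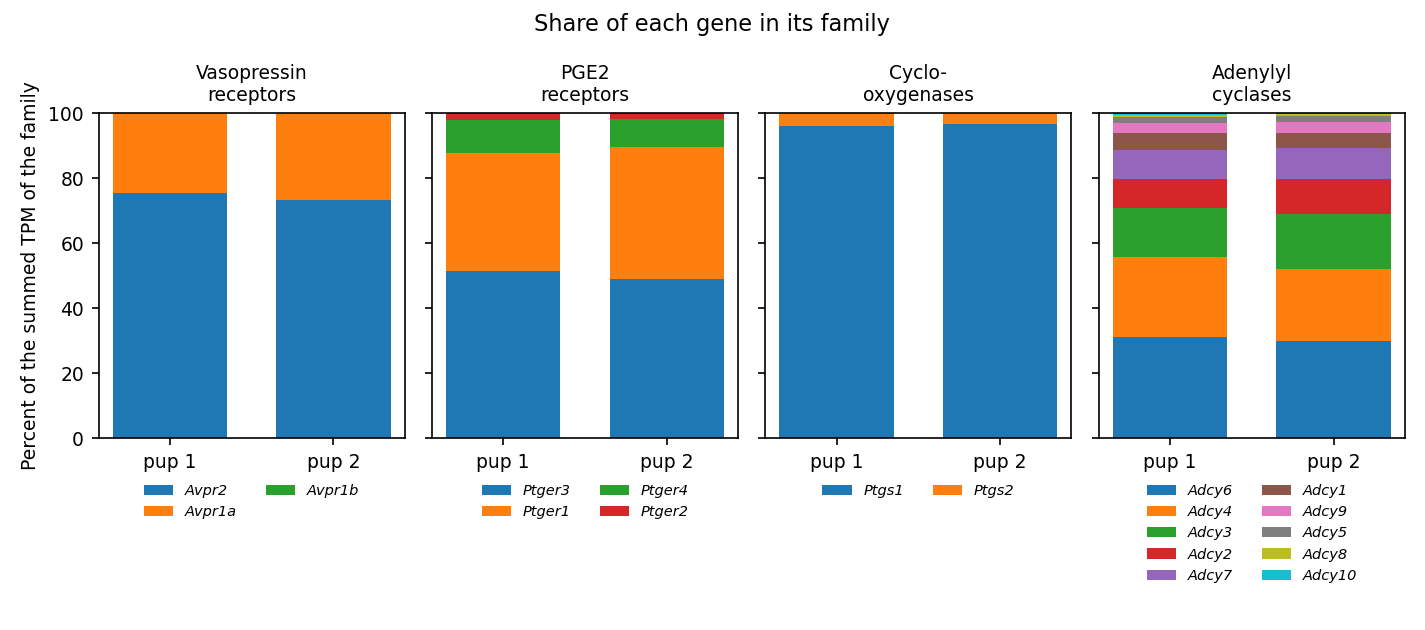
Percent of the summed TPM of each gene family held by each member, as stacked bars for pup 1 (left) and pup 2 (right). Avpr2, Ptger3, Ptgs1 and Adcy6 are the largest block of their families in both pups, with Avpr2 at 75.3% and 73.2%.

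The Ptger3 message was assigned to 2 coding transcripts, the only ones of this gene in the deposited annotation. They differ at the cytoplasmic tail of the receptor, the stretch by which mouse EP3 forms are told apart. A form outside that annotation could not be counted. Ptger3-202 includes an exon of 89 bases (chr3:157641721-157641809) that Ptger3-201 skips, and this changes the reading frame of the last exon. The sequences printed here, from GENCODE M21 transcripts on GRCm38, plus strand, show the coding end of each: the last 30 shared bases are in lower case, and the bases from there to the end of the stop codon, which each transcript reads in its own way, are in capitals. They span chr3:157605115-157643955 for Ptger3-201 and chr3:157605115-157643878 for Ptger3-202, introns removed.
Ptger3-201: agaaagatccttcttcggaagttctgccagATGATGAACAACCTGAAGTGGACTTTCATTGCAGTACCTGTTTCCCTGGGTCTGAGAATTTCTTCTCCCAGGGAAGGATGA
Ptger3-202: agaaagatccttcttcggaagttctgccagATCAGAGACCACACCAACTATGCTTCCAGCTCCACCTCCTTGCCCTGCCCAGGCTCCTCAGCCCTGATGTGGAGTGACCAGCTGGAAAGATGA

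The capitals hold 26 codons before the stop in Ptger3-201 and 30 in Ptger3-202, which give open reading frames of 362 and 366 codons. As background, these are the lengths of the mouse receptor forms named EP3 beta and EP3 alpha. Ptger3-202 had 15.33 TPM in pup 1 and 11.26 TPM in pup 2, or 69.0% and 54.7% of the gene. Ptger3-201 had 6.89 and 9.33 TPM, or 31.0% and 45.3%. The longer tail thus had the higher estimate in both pups, but its share differed between the littermates. In pup 1 the deposited TPM bounds of both transcripts were apart, with Ptger3-201 at 4.69 to 9.17 TPM. In pup 2 they overlapped, with Ptger3-201 at 7.28 to 11.2 TPM, so the order was not resolved there. Between the pups, the bounds of each transcript overlapped (12.6 to 17.2 and 9.19 to 13.0 TPM for Ptger3-202). The deposited length of Ptger3-201 was 2018 nt against 3148 nt in M21, so the 3′ end used by the authors was shorter than the one in the later annotation.

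**Figure D3:**
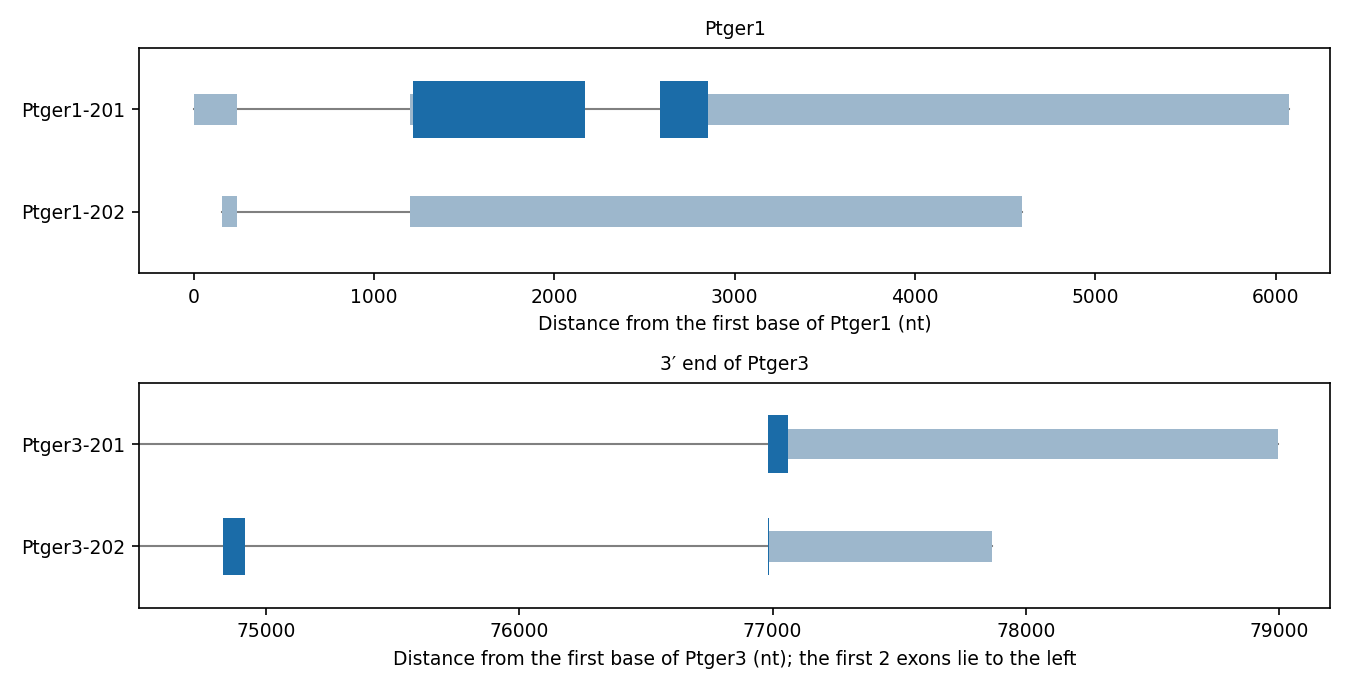
Exons (thin boxes) and coding parts (thick boxes) of Ptger1 and of the 3′ end of Ptger3, against the distance in nt from the first base of each gene, from M21. Ptger1-202 keeps the 420-base intron between the coding exons of Ptger1-201, and Ptger3-202 has an extra exon of 89 bases.

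The larger part of the Ptger1 TPM was assigned to a transcript with no annotated coding sequence. Ptger1-202, annotated as a retained intron, keeps the 420 bases between both coding exons of Ptger1-201 (chr8:83668847-83669266). The borders of that intron are printed here, plus strand, GRCm38, with its first and last 2 bases in capitals; they are the GT and AG of a usual splice site. The stretches lie at chr8:83668832-83668861 and chr8:83669252-83669281.
Ptger1 intron start: tggagccccctgctgGTgaggggcgcagtc
Ptger1 intron end: ctgcttctctcgcAGgtgttggtggtgttg

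Ptger1-202 had 8.46 TPM in pup 1 and 10.41 TPM in pup 2, or 53.5% and 60.8% of the gene. The coding Ptger1-201 had 7.37 and 6.73 TPM, or 46.5% and 39.2%. The retained intron form had the higher estimate in both pups. In pup 1 its deposited bounds overlapped those of Ptger1-201, at 6.51 to 7.93 TPM, so the order was resolved in pup 2 alone. Counted by its coding transcript alone, Ptger1 would lie below Adcy6 in both pups, above Avpr1a in pup 1 and below Avpr1a in pup 2. The deposited TPM bounds of Ptger1-202 did not overlap between the pups, at 7.44 to 9.23 TPM in pup 1 and 9.42 to 11.1 TPM in pup 2. This held for 1 of the 13 transcripts examined, those at 1 TPM or more in either pup from genes with several transcripts. Among all 27533 transcripts chosen in that way, 10.6% had bounds apart.

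With the use of strand in counting not given, the Ptger1 level and its retained intron share are uncertain.

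**Figure D4:**
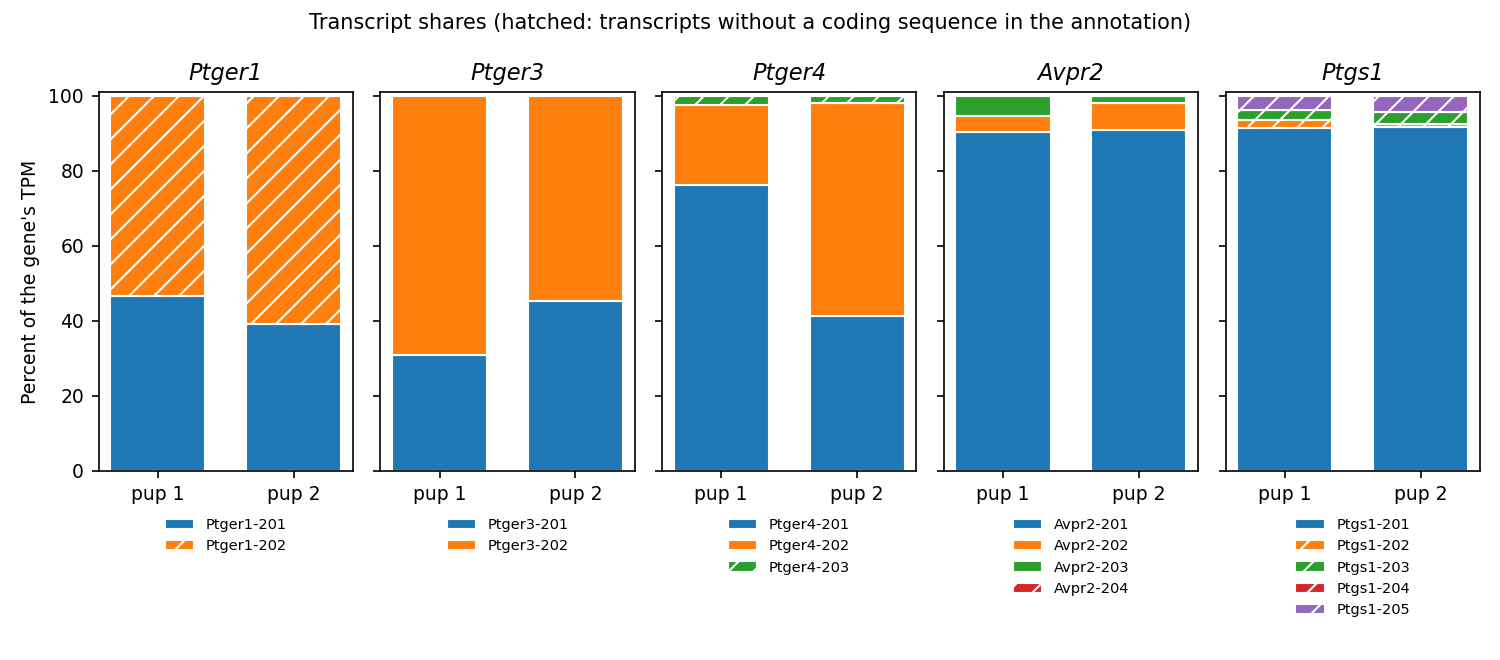
Percent of each gene's TPM assigned to each of its transcripts in pup 1 (left bars) and pup 2 (right bars), with transcripts that have no coding sequence hatched. Ptger4 shows the widest gap between the pups, with Ptger4-201 at 76.3% and 41.4%, while Avpr2-201 and Ptgs1-201 lie between 90.4% and 91.6% in both.

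The Ptger4 transcripts show how far such estimates carry. Ptger4-201 and Ptger4-202, both coding, differ around the first exon. Ptger4-201 took 76.3% of the gene's TPM in pup 1 and 41.4% in pup 2, and Ptger4-202 took 21.2% and 56.6%. The leading transcript therefore differed between the pups, but the deposited bounds were wide and overlapped, at 2.04 to 4.12 and 0.819 to 2.58 TPM for Ptger4-201. The gene's total does not rest on this split. Avpr1a, Adcy6 and Ptger2 had only 1 transcript each, so no split could be made. All Ptgs2 counts fell on 1 of its 2 transcripts.

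Between the littermates, the level of the genes was close. Of the 9 genes that reached 50 expected counts in 1 pup or both, 0 differed by 2-fold or more in CPM scaled by the trimmed mean of M values (TMM), beside 93 of 15161 genes (0.613%). In pup 1, 5 of the 9 were higher than in pup 2 and 4 were lower, of which Avpr2 and Ptgs1 were the higher in pup 1 by deposited TPM. The largest log2 difference was 0.18 for Ptger4 (exact binomial 95% interval -0.02 to 0.38), followed by -0.17 for Ptger1 and 0.17 for Ptgs2 (-0.12 to 0.47). For Ptger1, 1 of the 9, the interval of -0.26 to -0.08 left out 0, as it did for 40.5% of the 15161 genes. Across all genes tested the median absolute log2 difference was 0.10 and the 95th percentile 0.44, so all 9 lay within the usual spread between these pups. Avpr1b had too few counts for a ratio. No 50-base window of the 10 genes' transcripts occurred in a transcript of another gene on the same strand. On the opposite strand such windows did occur for several of the genes, most for Avpr2 at 72.9% of its windows. Reads of these genes are therefore set apart only if counting used strand, which is not given.

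Messages of the hormones themselves were at 0 or below 1 TPM. Avp, the gene of the vasopressin precursor, was at 0 counts in both pups, where 3 counts would be 0.212 TPM in pup 1. Oxt, the gene of the oxytocin precursor, was at 0.54 and 0.50 TPM from 7 and 8 counts. The oxytocin receptor Oxtr stood at 3.25 and 3.59 TPM, and Lnpep, an aminopeptidase that degrades both hormones, at 2.79 and 2.30 TPM. Of these 4 genes 2 reached 1 TPM in both pups.

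The genes that make, move and degrade PGE2 were all present. All 8 reached 1 TPM, with a median of 29.3 TPM in pup 1 and 28.9 TPM in pup 2. Ptges3, a cytosolic PGE synthase that is also the HSP90 co-chaperone p23, led at 386 and 373 TPM. Pla2g4a, the phospholipase that frees arachidonic acid, had 48.6 and 46.3 TPM, and the inducible synthase Ptges had 38.3 and 34.3 TPM. The lowest was the efflux transporter Abcc4 at 5.23 and 4.98 TPM. The median of this list exceeded that of all detected genes in each pup.

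Enzymes and receptors of the other prostanoids had lower list medians than the genes that make, move and degrade PGE2. Single genes were not all lower: in each pup Tbxa2r stood above the PGE2 receptors Ptger4 and Ptger2, and Ptgis above Abcc4. All 4 synthases were detected, with medians of 8.68 and 9.38 TPM: Ptgis, which makes prostacyclin, at 15.49 TPM in pup 1 and 14.1 TPM in pup 2, Ptgds at 9.52 and 10.52, Tbxas1, the thromboxane synthase, at 7.84 and 8.25, and Hpgds at 2.77 and 2.72 TPM. Of 5 receptors 3 were detected, and the medians over all 5 were 1.78 TPM in pup 1 and 1.85 TPM in pup 2. Tbxa2r stood at 14.26 and 12.71 TPM, the PGF2 alpha receptor Ptgfr at 3.21 and 2.19 TPM, and the prostacyclin receptor Ptgir at 1.78 and 1.85 TPM. The PGD2 receptors Ptgdr and Ptgdr2 were at 0 in pup 1 and at 0 and 0.01 TPM in pup 2.

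Downstream of the receptors, 12 of 13 G protein alpha subunit genes were detected. Gnas, the stimulatory subunit through which V2, EP2 and EP4 act, led by far at 1098.6 TPM in pup 1 and 1084 TPM in pup 2, ahead of the inhibitory subunits Gnai2 at 296 and 280 TPM and Gnai3 at 121 and 107 TPM. The lowest was Gna15 at 0.68 and 0.73 TPM. Beside Adcy6, 5 of the other 9 adenylyl cyclases reached 1 TPM, led by Adcy4 at 7.66 and 6.63 TPM, Adcy3 at 4.72 and 4.96 TPM and Adcy2 at 2.76 and 3.21 TPM, with Adcy10, the soluble cyclase, lowest at 0.19 and 0.05 TPM.

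All 9 protein kinase A and CREB family genes were detected, at medians of 28.2 and 22.9 TPM. The regulatory subunit Prkar1a led at 306 and 272 TPM, before the catalytic subunits Prkaca at 88.9 and 82.5 TPM and Prkacb at 42.1 and 37.5 TPM, with Prkar2b lowest at 10.69 and 10.98 TPM. Of the phosphodiesterases that degrade cAMP 11 of 12 were detected, at medians of 7.34 and 6.41 TPM. Pde1a led at 28.83 and 29.74 TPM, Pde7a had 11.73 and 12.71 TPM, Pde8b had 11.8 and 10.02 TPM, and Pde1c was lowest at 0.62 and 0.60 TPM.

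All 8 receptor kinases, arrestins and related regulators were detected, at medians of 7.70 and 7.82 TPM. Rgs2, which limits signalling through the Gq class, led at 30.51 and 32.1 TPM, Grk6 had 23.53 and 22.21 TPM and Arrb2 had 9.91 and 10.65 TPM. Grk3 was lowest by mean at 2.38 and 2.23 TPM, although Grk4 was lower in pup 1 at 1.83 TPM and Grk5 in pup 2 at 1.94 TPM.

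The collecting duct genes listed as known targets of vasopressin, for transport or its regulation, were all detected. Their median was 35.8 TPM in pup 1 and 31.8 TPM in pup 2. Aqp2, the vasopressin-regulated water channel, had 547 and 638 TPM, Aqp3, its basolateral partner, had 83.8 and 69.7 TPM, and Scnn1b, a sodium channel subunit, had 69.3 and 60.3 TPM. Slc14a2, the urea transporter of the inner medulla, was lowest by mean at 5.24 and 9.24 TPM. In TPM, the effector Aqp2 thus stood far above its receptor Avpr2 in each pup. Over all 10 lists, 70 of 80 genes reached 1 TPM in both pups, beside 61.5% of protein-coding genes. Of the 73 with enough counts 0 differed by 2-fold or more between the pups, beside 0.613% of all genes tested.

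**Figure D5:**
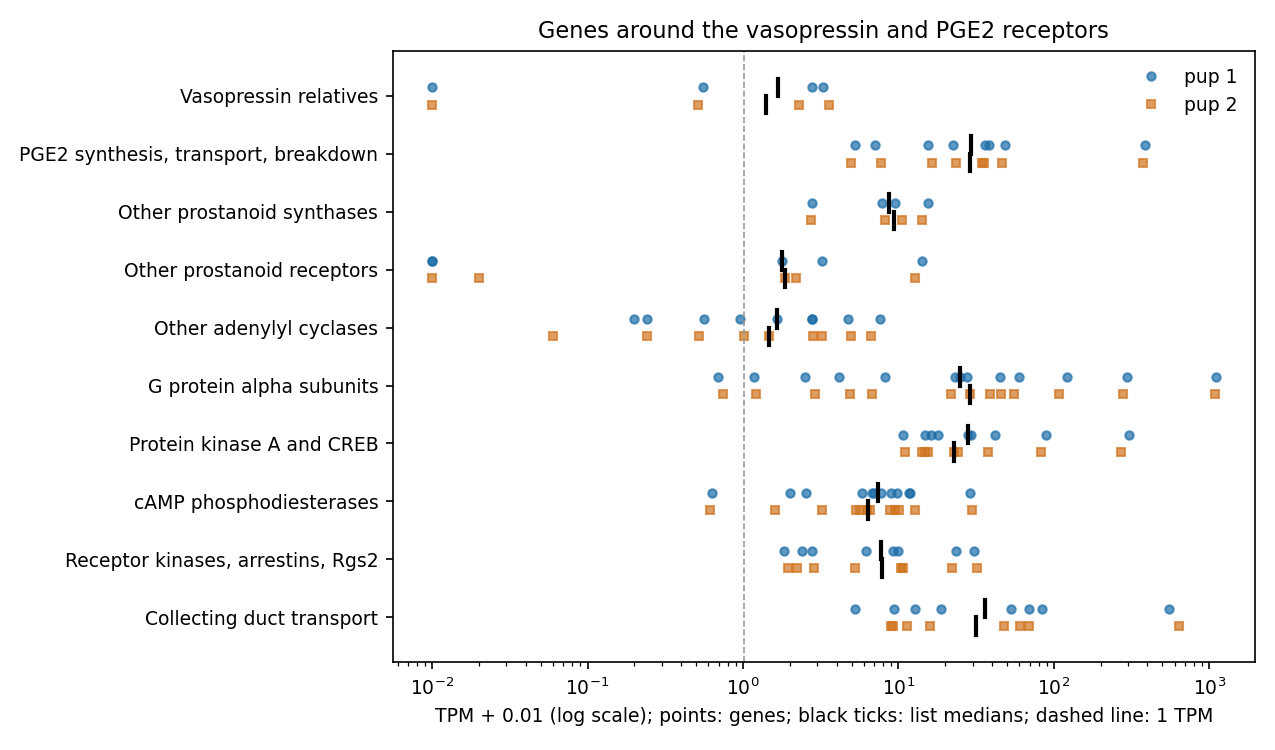
Level of each gene of the 10 lists in pup 1 (circles) and pup 2 (squares) as TPM + 0.01 on a log axis, with black ticks for the list medians and a dashed line at 1 TPM. PGE2 synthesis, protein kinase A and CREB, G protein and collecting duct genes have medians above 20 TPM, and the other prostanoid receptors, other adenylyl cyclases and vasopressin relatives have medians below 2 TPM.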

How the data were processed

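Total RNA-seq of newborn kidney was analysed from the deposited gene and transcript tables, 1 library for each of 2 pups. Per the file headers, these hold the expected count (an estimated number of reads), TPM, FPKM, the effective length, lower and upper bounds of TPM (a deposited signal range whose confidence level is not given) and each transcript's percent of its gene's TPM; the columns are those of RSEM. The deposited text names mm10 and GENCODE M4. For the aligner, the software versions and the use of strand, the entry is: not given in the sources used here. Reads that fit several transcripts were divided by estimation, so transcript values are less certain than gene values.

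Genes were matched by Ensembl identifier to GENCODE M21 (GRCm38) for symbols, coordinates, transcript types and sequences; 42462 of 43346 were named. The 10 genes, the lists and all pairs were chosen with earlier results of these data known. Named were all 10 genes, the 3 highest and the lowest of each list by mean TPM, every member of lists of under 6, the highest gene of marker lists, and genes overlapping any of the 10, of which 1 is not reported here.

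Detection was 1 TPM in both pups. Ratios between genes were log2(TPM + 0.1) differences within a pup, which understates those of low genes. Pup 1 over pup 2 was the log2 ratio of TMM-scaled CPM + 0.1 from rounded expected counts, for genes with 50 or more in either pup, called at 2-fold; its binomial interval carries no added value. Poisson and binomial intervals are exact at 95%. edgeR 4.0.16 and DESeq2 1.42.0 (R 4.3.3) gave scaling factors alone; the rest used SciPy 1.17.1, NumPy 2.4.6, pandas 2.3.3 and Matplotlib 3.10.9 under Python 3.11.15. With 1 group there is no p-value. The ratio step was tested on simulated data.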

Additional observations from a re-analysis of the deposited data

How the results depend on the processing

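In all, 136 alternatives were run. Of 51 alternatives to the main comparisons, 45 left them within the limits set, 6 moved them and 0 changed their direction. For the ratios between genes the limit was the SD of both pups. Leaving out a pup could not pass that limit or reverse a ratio whose sign both pups shared, so those alternatives say nothing on stability. The count of all genes past 2-fold between the pups was 635 with no filter and 398 at 10 expected counts, against 93; the count among the 10 genes was 0 in each. With 1 TPM added in place of 0.1, the log2 ratio of Avpr2 over Avpr1a was 1.40, that of Ptgs1 over Ptgs2 3.90 and that of Ptger4 over Ptger2 1.43; the larger added value shrinks ratios of low genes by construction. From expected counts per effective length, where no value was added, Ptger4 over Ptger2 was 2.22, beside 2.21 with 0.01 TPM added. The number of the 10 genes detected was 9 at 0.5 TPM, 7 at 2 TPM and 7 at 1 FPKM. Leaving out each pup in turn gave log2 ratios of 1.44 to 1.60 for Avpr2 over Avpr1a, 4.47 to 4.67 for Ptgs1 over Ptgs2, 2.02 to 2.18 for Ptger4 over Ptger2, 0.26 to 0.49 for Ptger3 over Ptger1 and 0.82 to 1.02 for Adcy6 over Adcy3, and 8 genes detected each time. Between the pups, 7 of 9 genes kept one sign; the small differences of the other two changed sign with deposited TPM, as Avpr2 ran between -0.06 and 0.08 and Ptgs1 between -0.04 and 0.05. No paired analysis was possible because there is a single group. With n = 2 littermates, differences between genes smaller than the spread of the pups, and any spread between litters, could not be resolved.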

Other observations

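Among the 73 genes of the pathway lists with at least 50 counts in a pup, Slc14a2 and Gna12 had the widest difference between the littermates; they were picked after their values were seen. Slc14a2, the urea transporter gene, had 5.24 TPM in pup 1 and 9.24 TPM in pup 2, from 400 and 867 counts, a log2 difference of -0.90. Its transcript Slc14a2-201 had deposited bounds of 4.24 to 5.19 TPM in pup 1 and 7.70 to 8.84 TPM in pup 2, which did not overlap. Gna12, a G protein alpha subunit gene, had 23.2 TPM in pup 1 and 38.97 TPM in pup 2, from 2283 and 4717 counts, a log2 difference of -0.83, with bounds of 21.8 to 23.7 TPM and 37.2 to 39.4 TPM. Both lie beyond the 95th percentile of the absolute difference over all genes, 0.44, and within 2-fold. Aqp2, in the same list as Slc14a2, had a log2 difference of -0.31, while Aqp3 had 0.18. The cause of these differences was not tested.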
